A study of Mus musculus with 73 samples.

Results

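A set of 5 DNA fragments was examined that, on average over the promoters, were inert or weakly active as single enhancers. They were followed through all enhancer-enhancer (EE) combinations in which the other fragment, here called the partner, came from another locus. The fragments were Otx2_E110, Nodal_E157, Pou5f1_E079, Lefty1_E087 and Lefty1_E095, and they occurred in 9705 such combinations, of 62160 EE combinations of different loci and 110180 combinations in all. They were chosen by earlier results on the same data, namely their activity next to control fragments (enhancer-control or EC combinations). E110, E157 and E079 had the lowest mean boost over all libraries with a value, while E087 and E095 were taken as varying little between promoters. That order rests on the Fgf5 library, in which E087 and E095 have no such value. The EE combinations tested below were not used for that choice.

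The activities were measured in E14TG2a cells, a mouse embryonic stem cell (mESC) line cultured in 2i+LIF, by a massively parallel reporter assay (MPRA). Each of 8 libraries carried 1 promoter (Sox2, Klf2, Otx2, Fgf5, Lefty1, Nanog, Ap1m1 or Tbx3) with pairs of fragments in position 1 and position 2, each in either orientation, and was transfected transiently in 3 biological replicates that were collected after 24 hours. The background was set by 20 control fragments of 450 bp in the same positions, 15 of them scrambled and 5 random, one of which was 438 bp long. All groups shared the same cells, culture and plasmid design, so the reporters were episomal and outside their native chromosomal context.

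In an MPRA, transcripts carry a barcode that names the combination behind them, so that the share of a barcode in RNA over its share in plasmid DNA reads out the activity of the combination. Enhancers are DNA elements bound by transcription factors that raise transcription from a promoter over a distance and largely irrespective of orientation. Open chromatin sites chosen around a gene also include elements that do not raise transcription on their own in a plasmid, and a 2-enhancer reporter shows whether such an element matters once an active neighbour is present. Otx2 and Pou5f1 encode transcription factors of early development and pluripotency, Nodal encodes a secreted signal of the TGF-beta family, and Lefty1 encodes an extracellular inhibitor of that signal.

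Otx2_E110 lies at chr14:48654527-48654976 of mm10, 1805 bp outside the Otx2 gene, and shares 88 bp with the neighbouring fragment Otx2_E111. Nodal_E157 lies at chr10:61405916-61406365, 11607 bp outside Nodal. Pou5f1_E079 lies at chr17:35497066-35497515, 8517 bp outside Pou5f1, and overlaps Pou5f1_E078 by 292 bp and Pou5f1_E077 by 15 bp. Lefty1_E087 lies at chr1:180889795-180890244, 2864 bp from Lefty2, which is the nearest protein-coding gene, and 44778 bp from Lefty1. Lefty1_E095 lies at chr1:180936711-180937160, within the Lefty1 gene, so that 4 of the 5 fragments are intergenic with respect to protein-coding genes in the RefSeq annotation of the same assembly. The sequences of the fragments themselves were not used here. The designed primers that bounded them in the genomic PCR are shown, 5′ to 3′ in lower case, because they define which DNA each name stands for.
Otx2_E110 forward: gtcaaggaccaatcgttaagcactttc
Otx2_E110 reverse: agaagcaagttctgggatggagg
Nodal_E157 forward: cttggaaagcacacaagtttggc
Nodal_E157 reverse: ctttcagctctttgactctaaagccc
Pou5f1_E079 forward: ctagcaaataaccttgggcctactaag
Pou5f1_E079 reverse: aaagaagaagaagaagagggagaggac
Lefty1_E087 forward: aaacacacatatgcagtagacacacag
Lefty1_E087 reverse: taaatatgcaagagttcaccacccttg
Lefty1_E095 forward: gcactgcccttatcgattctaggtatag
Lefty1_E095 reverse: tgtgtgagctccaggttccc

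The controls set the scale for what inert means, so the last 300 bases of the control with the lowest and of the control with the highest effect on its partners (values below) are shown without the ends that all controls share. The letters CCGGAAG, the core of ETS factor motifs on either strand, are in capitals.
E95-shuffled1: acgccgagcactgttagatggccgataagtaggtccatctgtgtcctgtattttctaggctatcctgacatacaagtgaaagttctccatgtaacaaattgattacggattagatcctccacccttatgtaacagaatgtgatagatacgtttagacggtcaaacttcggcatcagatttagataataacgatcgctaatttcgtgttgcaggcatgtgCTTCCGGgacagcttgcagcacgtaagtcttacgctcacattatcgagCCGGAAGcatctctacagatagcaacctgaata
RandomE5: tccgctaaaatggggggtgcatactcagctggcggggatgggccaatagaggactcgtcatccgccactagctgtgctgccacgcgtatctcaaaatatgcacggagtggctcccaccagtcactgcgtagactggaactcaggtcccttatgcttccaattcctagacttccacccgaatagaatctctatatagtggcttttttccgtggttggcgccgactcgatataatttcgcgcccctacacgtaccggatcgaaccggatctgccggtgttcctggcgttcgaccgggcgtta

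As a description of the values that chose the fragments, the mean boost over the libraries (log2 of the median activity next to controls over the median of control-control combinations) was -0.05 for Otx2_E110, 0.08 for Nodal_E157, 0.10 for Pou5f1_E079, 0.21 for Lefty1_E087 and 0.61 for Lefty1_E095. The first 3 are means over 8 libraries and the last 2 over 7, without Fgf5, so they are not alike. In the Fgf5 library the boost was -0.69 for Otx2_E110, -0.94 for Nodal_E157 and -0.90 for Pou5f1_E079. Over the other 7 libraries the means were 0.05 for Otx2_E110, 0.21 for Lefty1_E087, 0.23 for Nodal_E157, 0.24 for Pou5f1_E079 and 0.61 for Lefty1_E095, and the first 4 were the lowest of 58 fragments. Nodal_E162, which is not among the fragments, followed with 0.32. The boost of Lefty1_E095 spanned 0.53 to 0.79 and that of Lefty1_E087 0.04 to 0.53 over 7 libraries. In the same libraries that of Nodal_E157 spanned 0.15 to 0.30, so Lefty1_E087 was not the steadier of these 2. Neither Lefty1 fragment had an EC combination in the Fgf5 library, although 93 combinations of E087 and 94 of E095 with other enhancers were measured there.

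For each EE combination the gain was calculated, which is the log2 of its activity over the median activity of the partner next to controls, with the partner in the same position and library. A gain of 0 means that the fragment acted as the median control, a gain above 0 that it added activity and a gain below 0 that activity was lower than with the controls. Of the 9705 combinations 36 were at 0 in a replicate, 32 of them in the Fgf5 library, and 9603 were compared. Because 370 combinations held 2 of the fragments, these gave 9958 comparisons, 1879 for Otx2_E110, 3061 for Nodal_E157, 1571 for Pou5f1_E079, 1241 for Lefty1_E087 and 2206 for Lefty1_E095. The partners numbered 48 to 52 per fragment, and the median number of EC combinations behind a partner value was 39 to 68. The Fgf5 library stood apart by its combinations at 0 and by its baseline, which rests on 23 control-control combinations, against 219 to 477 in the other libraries.

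Averaged over partners, the fragments ranged from acting as a control to a modest addition. The mean gain over the 8 libraries was -0.05 ± 0.21 (SD, n = 8) for Otx2_E110, 0.01 ± 0.09 for Lefty1_E087, 0.12 ± 0.14 for Pou5f1_E079, 0.21 ± 0.07 for Nodal_E157 and 0.52 ± 0.10 for Lefty1_E095. The gains of Nodal_E157 and Lefty1_E095, which are 1.16-fold and 1.43-fold, were above 0 in 8 of 8 libraries (exact two-sided sign-flip permutation test over libraries, adjusted p = 0.00906 for each over all 58 enhancer fragments). The gain of Pou5f1_E079 was above 0 in 6 libraries and did not pass the test (adjusted p = 0.0741, same exact test), nor did that of Lefty1_E087 (0.75) or Otx2_E110 (0.591). Of all 58 enhancer fragments tested in the same way, 93.1% had a mean gain above 0 and 0% a mean gain below 0 at a 5% false discovery rate (FDR). Passing does not by itself set a fragment apart from inert DNA, as several controls were also above 0 in 8 of 8 libraries (named below). Against the partner with the 5 random controls alone, the gain was 0.11 for Nodal_E157 and 0.42 for Lefty1_E095, above 0 in 8 of 8 libraries for both (adjusted p = 0.00944, same exact test). From the lowest, Otx2_E110 ranked 1, Lefty1_E087 2, Pou5f1_E079 4, Nodal_E157 6 and Lefty1_E095 19 of 58.

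Lefty1_E095 added activity in every library, with the widest spread between replicates with the Fgf5 promoter. Its gain was 0.44 ± 0.03 (SD, n = 3) with the Sox2 promoter, 0.48 ± 0.04 with Klf2, 0.50 ± 0.05 with Otx2, 0.37 ± 0.13 with Fgf5, 0.66 ± 0.06 with Lefty1, 0.46 ± 0.06 with Nanog, 0.59 ± 0.03 with Ap1m1 and 0.65 ± 0.04 with Tbx3. The Lefty1 library, whose promoter is that of the gene the fragment lies in, gave the highest of these values, next to Tbx3 from which it differed by less than the SD. The gain was above 0 for 77.7% of combinations with Fgf5 and for 91.2% to 96.0% in the other libraries.

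Nodal_E157 gave a smaller addition with each promoter. Its gain was 0.24 ± 0.11 (SD, n = 3) with Sox2, 0.16 ± 0.05 with Klf2, 0.12 ± 0.06 with Otx2, 0.25 ± 0.09 with Fgf5, 0.26 ± 0.12 with Lefty1, 0.12 ± 0.07 with Nanog, 0.26 ± 0.04 with Ap1m1 and 0.27 ± 0.10 with Tbx3. All 24 replicate values were above 0, and the libraries lay within 0.16 of each other. Between 66.5% and 86.5% of the combinations of a library had a gain above 0.

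The values of Pou5f1_E079 fell into higher and near-zero ones by promoter. Its gain was 0.32 ± 0.05 (SD, n = 3) with Sox2, 0.31 ± 0.06 with Fgf5, 0.19 ± 0.05 with Tbx3 and 0.15 ± 0.03 with Lefty1. With the Klf2, Otx2, Nanog and Ap1m1 promoters it was 0.03 ± 0.05, 0.02 ± 0.02, -0.02 ± 0.04 and -0.04 ± 0.02, and the replicates of Klf2 and Nanog fell on both sides of 0. The 3 replicates of Ap1m1 were all below 0 and those of Otx2 all above 0.

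Lefty1_E087 stayed near 0 in most libraries. The gain was 0.18 ± 0.03 (SD, n = 3) with Sox2, 0.06 ± 0.05 with Tbx3, 0.03 ± 0.03 with Klf2 and 0.01 ± 0.05 with Lefty1. It was -0.04 ± 0.03 with Ap1m1, -0.06 ± 0.03 with Otx2, -0.10 ± 0.05 with Nanog and 0.0014 ± 0.16 with Fgf5. The 3 replicates agreed on a gain above 0 with Sox2, Klf2 and Tbx3 and on one below 0 with Ap1m1, Otx2 and Nanog.

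The library values of Otx2_E110 spanned the widest range of the 5 fragments (0.60), with a wide spread between replicates. Its gain was -0.41 ± 0.13 (SD, n = 3) with the Otx2 promoter, -0.27 ± 0.11 with Nanog and -0.18 ± 0.10 with Klf2, below 0 in all 9 replicates. It was 0.19 ± 0.28 with Fgf5, 0.10 ± 0.19 with Tbx3, 0.10 ± 0.04 with Ap1m1, 0.08 ± 0.25 with Sox2 and -0.0039 ± 0.16 with Lefty1. Ap1m1 was the one library with all replicates above 0. In the Otx2 library, whose promoter belongs to the gene near which the fragment lies, 14.9% of 221 combinations had a gain above 0. Replicate 2 gave the lowest value in all 8 libraries, with a mean of -0.22 against 0.02 in replicate 1 and 0.06 in replicate 3, and the same was seen for Nodal_E157 (0.11 against 0.23 and 0.25). Without replicate 2 the mean gain of Otx2_E110 was 0.03. The part of the transfection day in this was not tested.

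The difference between promoters was tested for each fragment by a permutation test of the library labels over 24 replicate values (100000 permutations). It passed a 5% FDR for Pou5f1_E079 (F = 35.6, p = 1e-05, the smallest value that the permutations can give, adjusted p = 1.5e-05), Lefty1_E095 (F = 7.65, adjusted p = 0.000427 by permutation), Lefty1_E087 (F = 5.80, adjusted p = 0.00175 by permutation) and Otx2_E110 (F = 4.32, adjusted p = 0.00813 by permutation). It did not pass for Nodal_E157 (F = 1.54, adjusted p = 0.232 by permutation). With the replicate number as a block, which takes out the shift shared by replicates of one number, Nodal_E157 passed as well (F = 7.08, adjusted p = 0.00141 by permutation within numbers), and so did the other 4 fragments. As 98.2% of 57 fragments were called without the block and 100% with it, the calls are no particular property of these fragments. Leaving out 1 replicate without the block ended the call of Otx2_E110 (without replicate 1, F = 1.57, or 3, F = 2.24), Lefty1_E087 (without replicate 2, F = 2.42, or 3, F = 2.79) and Lefty1_E095 (without replicate 3, F = 2.97), whereas Nodal_E157 passed without replicate 2 (F = 6.92). Lefty1_E087 and Lefty1_E095 were chosen as single enhancers taken to vary little between promoters. They ranked 4 and 6 of 57 from the lowest F, and 1 and 3 with the block. Without the Fgf5 library they ranked 10 (F = 17.3) and 6 (F = 12.2). Over the replicates left out the ranks ran from 1 to 19 for Lefty1_E087 and from 5 to 9 for Lefty1_E095.

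The controls were treated in the same way, each against its partner with the other 19 controls, to see what range of gains inert DNA spans. The mean gain over libraries of the 20 controls ran from -0.43 for E95-shuffled1 to 0.44 for RandomE5, with a median of -0.01. E95-shuffled1 was below 0 and RandomE5 above 0 in 8 of 8 libraries, so the controls differed among themselves beyond the spread between libraries. E27-shuffled2, E27-shuffled3, E30-shuffled3, E46-shuffled2 and RandomE2 were also above 0 in 8 of 8 libraries. E6-shuffled1, E6-shuffled3, E30-shuffled2, E95-shuffled3 and RandomE3 were likewise below 0 in 8 of 8. Of the 3 controls scrambled from each of 5 sequences, those named E6 (-0.37 to -0.18) and E95 (-0.43 to -0.07) were all below 0 and those named E46 (0.08 to 0.31) all above 0. The share of G and C bases was 57.3%, 43.8% and 55.3% in these families. It was 51.6% and 46.2% in those named E27 and E30, whose gains had both signs. A relation of this share to the gain was not tested. Of 9 motifs searched on both strands (ATTTGCAT for POU factors, CATTGT for SOX, AAGGTCA for nuclear receptors, GGGNGTGG for KLF, TTCCNGGAA for STAT, CACGTG for E-boxes, TGANTCA for AP-1, CTTTGAT for TCF/LEF and CCGGAAG for ETS factors, of which none contains another), the most frequent was GGGNGTGG with 4 of 20 controls, or 20%. CCGGAAG occurred in 3 controls, or 15%, with 2 matches in E95-shuffled1.

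Within this range, Otx2_E110, Lefty1_E087, Pou5f1_E079 and Nodal_E157 stood above 9, 11, 14 and 16 of the 20 controls in their mean gain. Lefty1_E095 stood above all 20. By library, Lefty1_E095 was above all controls in 6 libraries, with 1 control above it with Sox2 and 3 with Fgf5. Nodal_E157 was below 2 to 7 controls in each library, and Lefty1_E087 was below 5 to 12. Otx2_E110 was below all 20 controls with the Otx2 promoter, where the lowest control was at -0.36, below 17 with Nanog and below 16 with Klf2, but above 15 of 20 with Ap1m1. With the Otx2 promoter its gain of -0.41 differed from the lowest control by less than its SD over replicates.

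At the level of single combinations, each gain was tested against 0 over the 3 replicates with limma (FDR of 5% within a library). The replicates are transfections of the same plasmid library, so the limma p-values cover the spread between transfections and not that between barcodes. The median of the partner entered without an error of its own. With the median control as reference, 19.5% of combinations of a control were called above and 20.9% below their partner, and of the combinations of any enhancer 65.9% above and 3.91% below. Otx2_E110 was called above in 13.3% and below in 23.2% of its combinations, Lefty1_E087 in 15.6% and 15.2% and Pou5f1_E079 in 22.7% and 12.4%. Nodal_E157 was called above in 32.6% and below in 4.05%, and Lefty1_E095 above in 69.2% and below in 0.816%. The shares of single controls ran from 1.05% to 61.1% above and from 0.445% to 54.9% below. The fragments other than Lefty1_E095 lay within the range of the controls in both directions, and Lefty1_E095 was above all 20 controls in its share above.

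The called share depended on the library. Otx2_E110 was called below its partner in 54.3% of 221 combinations with the Otx2 promoter and in 45.7% of 256 with Nanog, against 21.3% and 24.4% for the controls in these libraries. With Ap1m1 it was called below in 8.36% and above in 17.1% of 287. Lefty1_E087 was called above in 36.0% of 125 combinations with Sox2 and below in 27.8% of 162 with Nanog. Pou5f1_E079 was called above in 43.7% of 135 combinations with Sox2 and in 14.7% of 238 with Ap1m1. In the Fgf5 library, where 4.95% of control combinations were called above, Lefty1_E095 was called above in 11.7% of 94 combinations, against 58.8% to 77.6% elsewhere.

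The lowest and largest called gains show the size of single effects in units of the reporter activity (a linear ratio of RNA over plasmid). In the Lefty1 library, Pou5f1_E082 in position 1 had a median activity of 0.221, 0.242 and 0.304 next to controls in the 3 replicates, and 0.0522, 0.0152 and 0.0392 with Otx2_E110 in position 2, a gain of -3.01 ± 0.96 (adjusted p = 0.0026 by limma). In the Fgf5 library, Nodal_E160 had 0.261, 0.221 and 0.168 next to controls and 1.93, 2.16 and 1.63 with the same fragment, a gain of 3.15 ± 0.23 (adjusted p = 0.00106 by limma). Replicate values did not overlap in either case. The value of Nodal_E160 next to controls rested on 13 EC combinations. The authors name Nodal_E160 with the Fgf5 promoter as an example of more than additive activity with most enhancers, so this gain may not be particular to Otx2_E110. The lowest gain of Lefty1_E095 was -0.64 ± 0.27, with Sox2_E179 in the Sox2 library, where the activity went from 1.38, 1.19 and 1.24 with controls to 0.715, 0.883 and 0.853 (adjusted p = 0.0114 by limma).

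For Lefty1_E087 the called gains ran from -2.29 ± 1.15 with Sox2_E183 (adjusted p = 0.0113 by limma) to 1.40 ± 0.57 with Nodal_E160 (adjusted p = 0.00647 by limma), both in the Lefty1 library. For Nodal_E157 they ran from -3.70 ± 1.51 with Otx2_E109 in the Sox2 library (adjusted p = 0.00458 by limma) to 2.74 ± 0.80 with Fgf5_E038 in the Fgf5 library (adjusted p = 0.00566 by limma). In the former the replicates with Nodal_E157 were 0.0905, 0.0286 and 0.0107, and in the latter the partner value rested on 1 EC combination. For Pou5f1_E079 the called gains ran from -2.07 ± 0.42 with Nanog_E074 in the Klf2 library (adjusted p = 0.00122 by limma) to 3.01 ± 0.25 with Otx2_E110 in the Tbx3 library, which is given without a test as its reference is a value that chose Otx2_E110. The largest gain of Lefty1_E095 was 2.21 ± 1.35 with Pou5f1_E078 in the Fgf5 library (adjusted p = 0.0344 by limma), with replicates at 0.185, 0.687 and 0.536.

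Whether the fragments act differently next to strong enhancers was examined with partners divided, per library, into 3 classes of equal size by their activity next to controls in the other position, which is not the reference of the gain. The gain of all 5 fragments was larger with weak than with strong partners. The mean gains with weak, intermediate and strong partners were 0.11, -0.02 and -0.17 for Otx2_E110, 0.15, 0.14 and -0.19 for Lefty1_E087 and 0.24, 0.19 and 0.0034 for Pou5f1_E079. They were 0.27, 0.17 and 0.20 for Nodal_E157 and 0.70, 0.56 and 0.38 for Lefty1_E095. The weak minus strong difference was 0.29 ± 0.26 (SD, n = 8) for Otx2_E110, 0.33 ± 0.20 for Lefty1_E087, 0.23 ± 0.17 for Pou5f1_E079, 0.07 ± 0.06 for Nodal_E157 and 0.32 ± 0.20 for Lefty1_E095 (exact sign-flip permutation test, adjusted p from 0.00968 to 0.0313). The share called was 100% of 57 enhancer fragments with larger gains next to weak partners and 0% with smaller ones. The direction thus does not set these fragments apart from other enhancers. For the controls the difference had both signs, from -0.17 for E6-shuffled3 to 0.234 for RandomE4. Lefty1_E087, Lefty1_E095 and Otx2_E110 lay above this range, Pou5f1_E079 (0.233) at its upper end and Nodal_E157 within it, without a test. The call of Nodal_E157 was lost without replicate 2 (difference of 0.05, adjusted p = 0.0859 by the exact permutation test) and without the Fgf5 library (0.06, adjusted p = 0.0625, likewise).

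Next to strong partners, Lefty1_E087 and Otx2_E110 gave less activity than the median control. The gain of Lefty1_E087 with strong partners was below 0 in 8 of 8 libraries, at -0.11 ± 0.03 (SD, n = 3) with Sox2, -0.12 ± 0.01 with Klf2, -0.19 ± 0.03 with Otx2, -0.26 ± 0.10 with Fgf5, -0.29 ± 0.01 with Lefty1, -0.25 ± 0.05 with Nanog, -0.10 ± 0.02 with Ap1m1 and -0.17 ± 0.02 with Tbx3. Its mean of -0.19 ± 0.07 (n = 8) passed the exact sign-flip permutation test (adjusted p = 0.0099). The gain of Otx2_E110 was below 0 in 7 libraries, from -0.39 ± 0.12 with Otx2 and -0.32 ± 0.10 with Nanog to -0.10 ± 0.15 with Sox2, and it was 0.11 ± 0.08 with Ap1m1. Its mean of -0.17 ± 0.15 (n = 8) passed (adjusted p = 0.0243, exact permutation test), but without replicate 2 it was -0.11 (adjusted p = 0.0795, same exact test).

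These 2 were among 5.26% of 57 fragments called below 0 next to strong partners, the lowest being Pou5f1_E084 with -0.37, against 91.2% called above. With weak partners 94.7% were called above and 0% below, and there Otx2_E110 and Lefty1_E087 were the 2 lowest of 57. The controls as guests of strong partners ran from -0.39 to 0.40, and 4 of 20 were below Lefty1_E087 and 5 below Otx2_E110. Some controls thus gave a larger loss than either fragment. With strong partners in the Otx2 library, Otx2_E110 was below all 20 controls, at -0.39 ± 0.12 (SD, n = 3) against -0.36 for the lowest control. Its replicates were -0.32, -0.53 and -0.31. The gap to the lowest control is smaller than the SD, so the replicates do not resolve this place.

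The partners of single loci showed where the differences lay. Nodal_E157 was uniform, with mean gains from 0.19 (partners of the Otx2 locus) to 0.23 (Lefty1 locus) and above 0 in 8 of 8 libraries for each of 8 loci. Lefty1_E095 ranged from 0.38 with Nanog partners to 0.66 with Fgf5 partners, all above 0 in 8 libraries. Lefty1_E087 ranged from -0.27 with Klf2 partners, above 0 in 0 of 7 libraries, and -0.16 with Pou5f1 partners, above 0 in 0 of 8, to 0.19 with Nodal partners, above 0 in 8 of 8. Pou5f1_E079 likewise was lowest with Klf2 partners (-0.12, above 0 in 0 of 8 libraries) and highest with Nodal partners (0.22, 8 of 8). Otx2_E110 spanned -0.11 with Sox2 partners to 0.09 with Nodal partners, each smaller than its SD over libraries. These values are a description without a test, as partners of a locus differ in strength and a partner sequence recurs in every library.

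Among partners measured in 6 or more libraries, the mean gain of Lefty1_E095 was above 0 with 49 of 49 and that of Nodal_E157 with 49 of 51. Pou5f1_E079 was above 0 with 28 and below with 10 of 38 partners, Lefty1_E087 with 14 and 13 of 27 and Otx2_E110 with 20 and 21 of 41. Otx2_E110 was lowest with Pou5f1_E082 (-0.73, above 0 in 1 of 6 libraries), and among the 46 guests of this partner it was the lowest, the median guest giving 0.77. Nodal_E157 too was lowest with Pou5f1_E082 (-0.02), the third lowest guest of it. Lefty1_E087 was lowest with Sox2_E179 (-0.44, above 0 in 0 of 8 libraries), where it was the lowest of 51 guests, and the Fgf5 library alone gave -1.72. Pou5f1_E079 was lowest with Nanog_E074 (-0.53, above 0 in 0 of 7), the second lowest of 40 guests, and Lefty1_E095 with Tbx3_E208 (0.14, above 0 in 6 of 7), the third lowest of 28.

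At the other end, Otx2_E110 and Pou5f1_E079 each had its highest gain with the other of the pair, 1.04 for Otx2_E110 on Pou5f1_E079 and 1.21 for Pou5f1_E079 on Otx2_E110. On Otx2_E110 as partner, Pou5f1_E079 ranked 21 of 41 guests from the lowest, equal to the median guest. Nodal_E157 was highest with Klf2_E046 (0.53, above 0 in 6 of 7 libraries), Lefty1_E087 with Otx2_E114 (0.29, 7 of 8) and Lefty1_E095 with Pou5f1_E078 (0.86, 8 of 8). The median guest gave 0.71, 1.14 and 0.89 on these partners.

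Combinations of 2 of the fragments were set against the control-control baseline. The pairs of Lefty1_E095, which is weakly active, were taken apart. The boost of the pairs of all 5 fragments over the control-control baseline was 0.93 ± 0.18 (SD, n = 3) with Sox2, 0.48 ± 0.07 with Klf2, 0.34 ± 0.15 with Otx2, -0.34 ± 0.31 with Fgf5, 0.86 ± 0.26 with Lefty1, 0.46 ± 0.08 with Nanog, 0.55 ± 0.05 with Ap1m1 and 0.90 ± 0.04 with Tbx3, over 30 to 53 combinations per library. Without the pairs of Lefty1_E095 it was 0.83 ± 0.32 with Sox2, 0.33 ± 0.12 with Klf2, 0.29 ± 0.14 with Otx2, -0.43 ± 0.25 with Fgf5, 0.58 ± 0.23 with Lefty1, 0.22 ± 0.14 with Nanog, 0.34 ± 0.07 with Ap1m1 and 0.73 ± 0.09 with Tbx3, over 24 to 31 combinations. All these medians lay between the 5th and 95th percentile of single control-control combinations of their library, such as -1.67 and 0.97 with Sox2. Of the single pairs of all 5 fragments, from 2 of 30 with Fgf5 to 19 of 45 with Sox2 were above the 95th percentile. By pair, the mean boost was -0.11 for Lefty1_E087 with Otx2_E110 (3 libraries) and 0.08 for Lefty1_E087 with Pou5f1_E079 (3 libraries), and over 8 libraries 0.20 for Nodal_E157 with Otx2_E110, 0.35 for Nodal_E157 with Lefty1_E087 and 0.45 for Nodal_E157 with Pou5f1_E079. The pairs of Lefty1_E095 gave 0.71 with Otx2_E110, 0.81 with Nodal_E157 and 0.83 with Pou5f1_E079. Next to controls Lefty1_E095 alone gave 0.61 over the 7 libraries other than Fgf5. Over these 7 libraries its pairs gave 0.79 with Otx2_E110, 0.93 with Nodal_E157 and 0.93 with Pou5f1_E079. No test against the value of Lefty1_E095 alone was made, since the values next to controls chose the fragments.

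The pair of Otx2_E110 and Pou5f1_E079 had the highest mean boost, 1.099 ± 0.83 over 7 libraries and 17 combinations, with 1 to 4 combinations per library. Its boost was 1.88 with Tbx3, 1.76 with Lefty1, 1.68 with Fgf5, 1.65 with Klf2, 0.53 with Nanog, 0.26 with Ap1m1 and -0.06 with Otx2, and the pair was not measured with Sox2. With the Tbx3 promoter, Pou5f1_E079 in minus orientation in position 1 and Otx2_E110 in plus orientation in position 2 had activities of 0.771, 0.846 and 1.41 in the 3 replicates, against a baseline of 0.112, 0.175 for Pou5f1_E079 and 0.118 for Otx2_E110 next to controls. The same arrangement gave 0.471, 0.282 and 0.388 with Lefty1 (baseline 0.0866), 1.40, 0.923 and 1.46 with Klf2 (baseline 0.394) and 0.919, 0.761 and 0.872 with Ap1m1 (baseline 0.587). All replicates of these 4 combinations were above the baseline.

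By arrangement, the 6 combinations with Pou5f1_E079 in minus orientation first and Otx2_E110 in plus orientation second had a median boost of 1.80 (0.53 to 3.12), and the 6 with Otx2_E110 in minus orientation first and Pou5f1_E079 in plus orientation second 0.79 (-0.33 to 1.84). The remaining 5 combinations had Pou5f1_E079 first with both in minus orientation (median 0.69) or Otx2_E110 first with both in plus orientation (0.24). With 1 combination per arrangement and library this is a description without a test.

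Position and orientation changed the gain of some fragments. The gain of Pou5f1_E079 in position 1 exceeded that in position 2 by 0.17 ± 0.12 (SD, n = 8), in 7 of 8 libraries (adjusted p = 0.0445, exact sign-flip permutation test). Without the Fgf5 library it was 0.19 and did not pass (adjusted p = 0.0774, same exact test). Its combinations in position 1 were 314 in plus and 550 in minus orientation, and those in position 2 were 453 and 254. In plus orientation its gain was 0.04 in position 1 and -0.08 in position 2, and in minus orientation 0.24 and 0.28. The part of orientation in this position difference was not tested. For Lefty1_E095 the difference was -0.17 ± 0.15, with 0.45 in position 1 and 0.62 in position 2, and for Lefty1_E087 it was 0.08 ± 0.07, neither of which passed (adjusted p = 0.0557 for both, same exact test). Both passed with each library value taken as the mean of its single-replicate values, which is not a block by replicate number. The differences were then 0.07 for Lefty1_E087 (adjusted p = 0.0297, exact test) and -0.19 for Lefty1_E095 (adjusted p = 0.0405, exact test). Lefty1_E087 also passed without replicate 1 (0.11, adjusted p = 0.0445, exact test) and Lefty1_E095 without replicate 2 (-0.22, adjusted p = 0.0318, exact test). For Otx2_E110 it was 0.15 ± 0.19 (adjusted p = 0.108) and for Nodal_E157 -0.05 ± 0.08 (adjusted p = 0.21, exact test). Of 57 enhancer fragments 22.8% were called higher in position 1 and 12.3% lower.

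The orientation mattered most for Pou5f1_E079 and Nodal_E157. In plus orientation the gain of Pou5f1_E079 was -0.05 and in minus orientation 0.25, a difference of -0.30 ± 0.11 (SD, n = 8) that was below 0 in 8 of 8 libraries (adjusted p = 0.0148, exact sign-flip permutation test). That of Nodal_E157 was 0.11 in plus and 0.32 in minus orientation, a difference of -0.21 ± 0.06, also in 8 of 8 (adjusted p = 0.0148, exact permutation test). The difference of Nodal_E157 was -0.36 in position 2, with 0.06 in plus and 0.42 in minus orientation, but -0.05 in position 1. For Pou5f1_E079 it was -0.20 in position 1 and -0.36 in position 2. Otx2_E110 had a difference of 0.10 ± 0.07 in the opposite direction (adjusted p = 0.0247, exact permutation test), which within each position was 0.05 and 0.09 and did not pass. Lefty1_E087 (0.03, adjusted p = 0.759) and Lefty1_E095 (0.00077, adjusted p = 0.977) did not pass the exact test over both positions. Within position 1, however, both were lower in plus orientation in 7 of 7 libraries, with differences of -0.13 for Lefty1_E087 and -0.11 for Lefty1_E095 (adjusted p = 0.0286 for each, exact test), where 29.1% of 55 fragments were called lower and 34.5% higher. Within position 2 the differences were 0.08 and -0.03 and did not pass, where 33.3% of 57 fragments were called lower and 31.6% higher. Of all fragments 35.1% were called higher and 33.3% lower in plus orientation, so a dependence on orientation was common.

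The overlapping neighbours were compared as guests of the same kind of partner. Otx2_E111, which shares 88 bp with Otx2_E110, had a mean gain of 2.01 ± 0.98 (SD, n = 8), above 0 in 8 of 8 libraries and rank 53 of 58, whereas Otx2_E110 had rank 1. Pou5f1_E078, with 292 bp of Pou5f1_E079, and Pou5f1_E077, with 15 bp, had gains of 0.30 ± 0.16 and 0.29 ± 0.14, each above 0 in 8 of 8 libraries (adjusted p = 0.00906, exact sign-flip permutation test). The difference between a fragment and its neighbour was not tested.

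The sum of both single activities minus the baseline, an additive expectation, was set against the observed activity as a description, since it uses the EC values that chose the fragments. The log2 of observed over expected activity was 0.25 ± 0.10 over 7 libraries for Lefty1_E095, 0.18 ± 0.24 over 8 for Nodal_E157, 0.07 ± 0.30 for Pou5f1_E079, -0.04 ± 0.20 for Otx2_E110 and -0.07 ± 0.08 over 7 for Lefty1_E087. For Lefty1_E095 it was above 0 in each library, from 0.15 to 0.41. The highest value of Nodal_E157, Pou5f1_E079 and Otx2_E110 was that of the Fgf5 library, at 0.76, 0.80 and 0.39. Without it the means over 7 libraries were 0.10 ± 0.06, -0.03 ± 0.07 and -0.10 ± 0.10, so that the sign for Pou5f1_E079 rests on the Fgf5 library.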

How the data were processed

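The data were 73 samples of 8 MPRA libraries (48 cDNA, 16 pDNA, 9 inverse PCR). The authors counted barcodes, assigned them to fragments with Bowtie2 and divided cDNA by pDNA shares. The deposited activity is this ratio, averaged over barcodes, for each of 3 replicates performed on different days. It holds no counts, so the depth is unknown and no counting interval is given. The deposited baselines, boosts and expected activities of the authors, and the mean over replicates, were not used. Fragment coordinates, primers and control sequences came from the supplementary files, gene positions from RefSeq (GRCm38.p6).

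Combinations at 0 in any replicate were left out. A tested library value is the median gain over at least 5 combinations, while values of a partner or pair may rest on 1, from the geometric mean of the replicates, and its SD comes from each replicate alone. Means over at least 6 libraries were tested by an exact two-sided sign-flip test (smallest p 0.0078125) with Benjamini-Hochberg adjustment over all enhancer fragments. Libraries share fragments and cells, so p-values cover the spread between promoters. Single combinations were tested with limma 3.58.1 in R 4.3.3 (intercept, eBayes), per library and over all combinations of an enhancer or control as guest. Other values were computed in Python 3.11.15 with numpy 2.4.6 and pandas 2.3.3. The methods were tested on simulated data.

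The fragments, motifs and tests were chosen with earlier results of these data known, and the test with strong partners, the block in the test between promoters and the values without Fgf5, without Lefty1_E095 or within a position were added after the data were seen. Partners, controls and combinations were named as the highest and lowest of their kind. Alternatives covered replicates, zeros, the controls used, the partner median, its EC combinations and the threshold.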

Additional observations from a re-analysis of the deposited data

Results flagged for a closer look

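The gain over the partner with controls differed between the 8 promoters by the permutation test over replicate values for Pou5f1_E079 (F = 35.6), Lefty1_E095 (F = 7.65), Lefty1_E087 (F = 5.80) and Otx2_E110 (F = 4.32). The same test called 98.2% of 57 enhancer fragments, and the F of these 4 ranked 32, 6, 4 and 2 from the lowest. For Otx2_E110 the 3 replicates with Otx2, Nanog and Klf2 were all below 0 and those with Ap1m1 all above 0.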

How the results depend on the processing

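The gains of Nodal_E157 and Lefty1_E095 stayed above 0 and past the threshold under all alternatives run. That of Otx2_E110 did not pass the threshold under any, and turned to 0.032 without replicate 2 (-0.12 to 0.032 over the replicates left out). Lefty1_E087 lay between -0.0096 and 0.029 over the replicates left out and was -0.039 against random controls alone, -0.015 without partners among the 5 fragments, -0.027 as a median over partners and -0.022 as a mean over combinations. Pou5f1_E079 passed without replicate 1 (0.12 to 0.13 over the replicates left out) and with the partner median in the same orientation (0.12, adjusted p = 0.0412 by the exact permutation test). The cause of these changes was not tested.

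With each library value taken as the mean of its 3 single-replicate values, the mean gain of Lefty1_E087 was -0.0050. The position differences of Lefty1_E087 (0.069, adjusted p = 0.0297) and Lefty1_E095 (-0.19, adjusted p = 0.0405) then passed the exact permutation test. Such a mean does not take out a shift shared by replicates of one number. The replicate number was a block only in the test between promoters, where the F of Nodal_E157 passed with it (7.08). The block changed no other call in the test between promoters. The mean of single-replicate values changed no other call for the gain, the gain with strong partners, partner strength, position or orientation. Neither was run for single combinations. The numbers do not pair the samples by the labels. Deviations of equal numbers correlated with a mean r of 0.56 over 84 pairs of libraries and replicates, with a lowest of -0.35. Those of unequal numbers correlated with -0.26. Deviations were taken from the value of all 3 replicates and so nearly cancel, which ties the second correlation to the first.

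Leaving out a replicate gave an F between promoters of 0.58 to 6.92 for Nodal_E157, 1.57 to 18.8 for Otx2_E110, 2.42 to 17.5 for Lefty1_E087 and 2.97 to 9.21 for Lefty1_E095, position differences of 0.052 to 0.11 for Lefty1_E087 and -0.22 to -0.16 for Lefty1_E095, orientation differences of -0.026 to 0.026 for Lefty1_E095, weak minus strong differences of 0.046 to 0.060 for Nodal_E157, and gains with strong partners of -0.22 to -0.11 for Otx2_E110 and -0.0056 to 0.023 for Pou5f1_E079. Without the Fgf5 library the weak minus strong difference of Nodal_E157 was 0.061, the gain of Pou5f1_E079 with strong partners -0.017, its position difference 0.19, and the orientation differences of Lefty1_E087 and Lefty1_E095 -0.019 and -0.012. With at least 10 EC combinations behind each partner the latter were -0.0022 and -0.0088. Within position 1 the orientation difference was 0.050 for Otx2_E110, -0.13 for Lefty1_E087 and -0.11 for Lefty1_E095 (adjusted p = 0.0286 for the last 2, exact test over 7 libraries), and within position 2 it was 0.090 for Otx2_E110 and -0.034 for Lefty1_E095.

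Of the combinations called by limma, in the order Otx2_E110, Nodal_E157, Pou5f1_E079, Lefty1_E087 and Lefty1_E095, a 1% FDR left 112, 392, 136, 58 and 988 above and 188, 29, 75, 77 and 3 below, against 250, 997, 356, 194 and 1527 above and 435, 124, 195, 189 and 18 below at 5%. A difference of at least 0.5 left 165, 394, 174 and 87 above for the first 4, and 252, 43, 99, 96 and 4 below for all. Leaving out a replicate gave 149 to 235, 443 to 655, 195 to 283, 88 to 152 and 1176 to 1391 above and 246 to 420, 45 to 104, 115 to 162, 118 to 159 and 6 to 14 below. With the partner in the same orientation, 68 of Nodal_E157 were below. The depth behind single combinations is unknown.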
